A study of Homo sapiens with 12 samples.

Results

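The genes described here are 42 human genes of the antioxidant system controlled in part by the transcription factor NRF2. They comprise the regulators of that factor, its textbook targets, and the enzymes of the glutathione, thioredoxin, peroxiredoxin, superoxide and NADPH systems. They were chosen by name, as a readout of oxidants that might leave the endoplasmic reticulum. The choice was made with earlier results of these data known, so counts among the 42 describe these genes and do not test the set. All 42 had a probe set on the array among the 18404 genes with a usable symbol. Expression was measured on 12 Affymetrix arrays in HEK 293 Flp-In T-REx cells, an established human embryonic kidney line in which a transgene can be switched on with doxycycline. One stable line carried Ero1α-WT, the oxidase that makes disulfide bonds in the endoplasmic reticulum. The other carried Ero1α-C104A/C131A, a form with the regulatory cysteines C104 and C131 replaced by alanine. Each line was either left uninduced or given doxycycline for 24 h, which makes 4 groups. Every group has 3 biological replicates with the letters A, B and C. Both lines carry the endogenous ERO1A gene and were grown under hygromycin B and blasticidin. No group without a transgene and no doxycycline-treated parental line was analysed here, so the drug and the transgene product cannot be told apart. Each construct is represented by a single stable line, so construct and line cannot be told apart either. The labels call the replicates biological without saying whether the cultures were started separately, so p-values measure the spread between these samples.

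NRF2, encoded by NFE2L2, is normally held in the cytosol by KEAP1, an adaptor that carries reactive cysteines and sends NRF2 to the proteasome. When those cysteines are modified by oxidants or electrophiles, NRF2 accumulates, pairs with a small MAF protein such as MAFG and binds antioxidant response elements near genes such as HMOX1, NQO1, GCLM, SRXN1 and TXNRD1. Ero1α passes electrons from protein disulfide isomerase to oxygen and releases hydrogen peroxide, and the targets of NRF2 are commonly read as a sign that peroxide has reached the cytosol.

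The core of the antioxidant response element, TGACNNNGC, was looked for on both strands in RefSeq promoter windows of build GRCh38.p14, each running from 250 bases before to 50 bases after a start site. Of the 42 genes, 33 had a window. The other 9, SOD1, GSR, CBR3, HMOX1, PRDX1, TXN2, ABCC1, GSS and PRDX6, had none and were not searched. Sequence outside the windows was not read, so a window without the core does not show that a gene lacks the element. The core was present for 8 of these 33, namely CBR1, EPHX1, GCLM, KEAP1, ME1, MGST1, PGD and TXNRD1. Over all genes with a window, 16.1% held it, as did 13.3% of all 35116 windows. For 6 of these genes whose levels are described below, 1 match upstream of the start is shown, on the gene's strand from 5′ to 3′, with the match in capitals. The matches of KEAP1 and MGST1 and further matches of ME1 and TXNRD1 are not printed. A capital run that starts with GC is the core read on the opposite strand.
EPHX1 (chr1:225825260-225825300, plus strand): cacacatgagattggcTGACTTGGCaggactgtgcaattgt
ME1 (chr6:83431164-83431204, minus strand): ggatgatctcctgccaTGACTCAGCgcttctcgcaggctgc
PGD (chr1:10398847-10398887, plus strand): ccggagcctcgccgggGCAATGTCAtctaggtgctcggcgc
GCLM (chr1:93909440-93909480, minus strand): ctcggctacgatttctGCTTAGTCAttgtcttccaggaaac
TXNRD1 (chr12:104286914-104286954, plus strand): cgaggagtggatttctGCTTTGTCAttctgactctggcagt
CBR1 (chr21:36069849-36069889, plus strand): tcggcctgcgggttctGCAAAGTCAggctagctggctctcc
Each match describes the sequence of the window and is not evidence of binding.

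The targeted gene followed the labels. ERO1A, whose level on the array does not separate the endogenous from the transgenic transcript, rose 4.37-fold with induction in the WT line and 5.38-fold in the C104A/C131A line. Before induction it was lower in the C104A/C131A line, at 0.740-fold (limma, adjusted p = 0.000454), and after induction the line difference did not pass (0.912-fold, adjusted p = 0.178). Among markers of HEK 293 cells, 6 of 9 lay above the level of the median gene, and PAX2, LHX1 and NEFM did not. Of the other markers, 0 of 4 leukocyte, 0 of 5 endothelial, 0 of 5 hepatocyte and 1 of 5 fibroblast markers (COL1A1) lay above it. Arrays of the same group correlated at 0.992 to 0.996 over genes. WT uninduced replicate A stood furthest from its group, at one end of the first component of the within-group deviations, which held 33.7% of their variance.

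The first question was whether switching on either form of Ero1α moved the antioxidant genes. None of the 42 genes passed an adjusted p of 0.05 in either line. In the WT line 0 of 42 passed, where 0.114% of all genes did, and in the C104A/C131A line 0 of 42 passed, where 0.326% did. At an unadjusted p under 0.05, limma gave 1 gene in the WT line (GLRX; 4.46% of all genes) and 2 in the C104A/C131A line (GLRX and GCLC; 5.88% of all genes). An ordinary two-way model without limma's moderation also gave 0 in both lines. The median change was -0.02 on the log2 scale in the WT line and -0.03 in the C104A/C131A line, beside 0.00 and -0.01 over all genes. The extremes were ABCC2 at -0.10 and GLRX at 0.18 in the WT line, and GPX1 at -0.14 and GLRX at 0.24 in the C104A/C131A line.

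The limits on these changes were narrow. The 95% interval lay within a 1.25-fold change either way for 41 of 42 genes in each line, against 74.6% and 75.3% of all genes, and within 1.5-fold for all 42 in each line. Most of the 42 genes lie above the median level, and the share among genes of like brightness was not counted. The exception was OSGIN1, a dim gene that encodes an oxidative stress-induced growth inhibitor, in the WT line (upper bound 1.31-fold). In the C104A/C131A line it was GLRX (upper bound 1.31-fold). In the WT line the groups did not overlap in 2 genes higher and 2 lower, where 5.24% and 3.84% of all genes were so separated. In the C104A/C131A line this held for 3 genes higher and 4 lower, beside 4.51% and 6.97% of all genes.

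**Figure D1:**
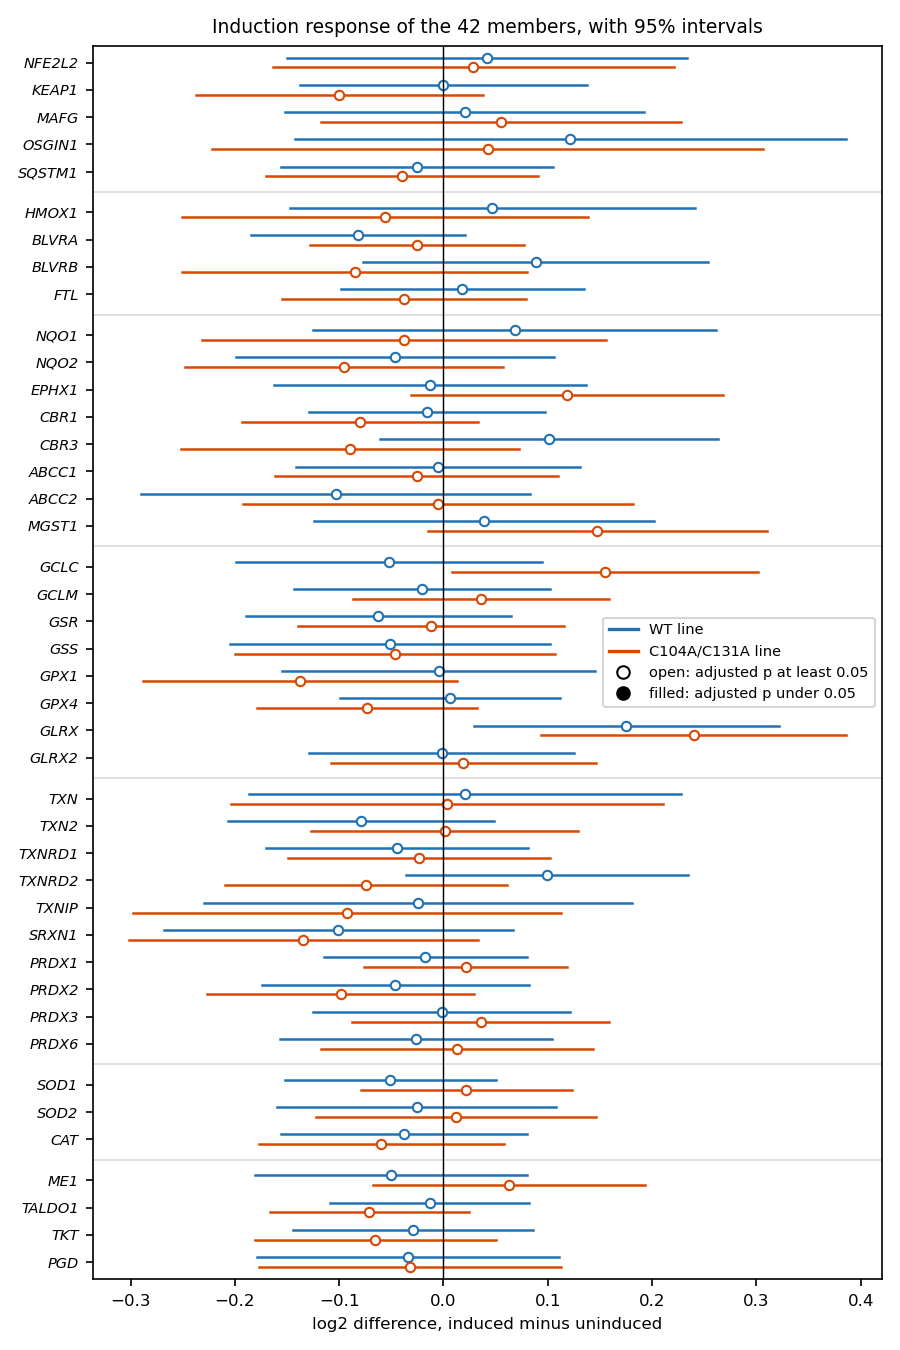
Log2 change on induction (x axis, induced minus uninduced) of each of the 42 genes with its 95% interval from limma, in the WT line (blue) and the C104A/C131A line (orange), grouped by role from regulators at the top to NADPH supply at the bottom. Every point is open, since 0 of 42 genes passed an adjusted p of 0.05 in either line, and GLRX lies furthest to the right in both lines.

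The regulators showed no called change on induction. NFE2L2 measured 8.74, 9.06 and 9.17 (log2 level, replicates A, B and C) in uninduced and 9.01, 9.06 and 9.01 in induced WT cells, and 8.87, 8.82 and 8.90 in uninduced and 8.90, 8.86 and 8.91 in induced C104A/C131A cells. The induced values lay inside the uninduced range in the WT line and overlapped it in the C104A/C131A line. KEAP1 measured 8.40, 8.46 and 8.48 against 8.52, 8.33 and 8.49 in the WT line, and 8.67, 8.56 and 8.60 against 8.52, 8.57 and 8.44 in the C104A/C131A line. Its change in the C104A/C131A line was -0.10 (95% interval -0.24 to 0.04, limma adjusted p = 0.902), with overlapping groups. NRF2 and KEAP1 are controlled largely at the protein level, which arrays do not read.

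Of the targets most used to read NRF2 activity, none passed the test on induction. HMOX1, heme oxygenase 1, measured 6.53, 6.18 and 6.22 in uninduced and 6.41, 6.32 and 6.35 in induced WT cells, and 6.58, 6.73 and 6.55 against 6.56, 6.48 and 6.65 in C104A/C131A cells. NQO1, a quinone reductase, measured 6.26, 6.62 and 6.61 against 6.51, 6.64 and 6.55 in the WT line, and 6.41, 6.34 and 6.49 against 6.42, 6.33 and 6.38 in the C104A/C131A line. Both genes overlapped between states in both lines, and their changes were 0.05 and -0.06 for HMOX1 and 0.07 and -0.04 for NQO1 in the WT and C104A/C131A lines. HMOX1, NQO1, OSGIN1 and ABCC2 were dim, with mean levels below that of the median gene (7.02). A change in a dim gene can be understated by background, so the bounds on these 4 genes apply to the array signal.

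GCLM, the modifier subunit of the enzyme that starts glutathione synthesis, measured 7.33, 7.27 and 7.35 against 7.25, 7.30 and 7.34 in the WT line and 7.41, 7.43 and 7.39 against 7.40, 7.55 and 7.39 in the C104A/C131A line. TXNRD1, the cytosolic thioredoxin reductase, measured 8.89, 8.98 and 8.80 against 8.79, 8.85 and 8.90 in the WT line and 8.98, 8.92 and 9.01 against 8.95, 8.97 and 8.93 in the C104A/C131A line. States overlapped in both genes and both lines. In the C104A/C131A line the 95% interval was -0.09 to 0.16 for GCLM and -0.15 to 0.10 for TXNRD1. SRXN1, sulfiredoxin, which repairs over-oxidised peroxiredoxins, was lower in all 3 induced than in all 3 uninduced C104A/C131A arrays, but the change of -0.13 ± 0.08 (SE) did not pass (limma, adjusted p = 0.879).

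**Figure D2:**
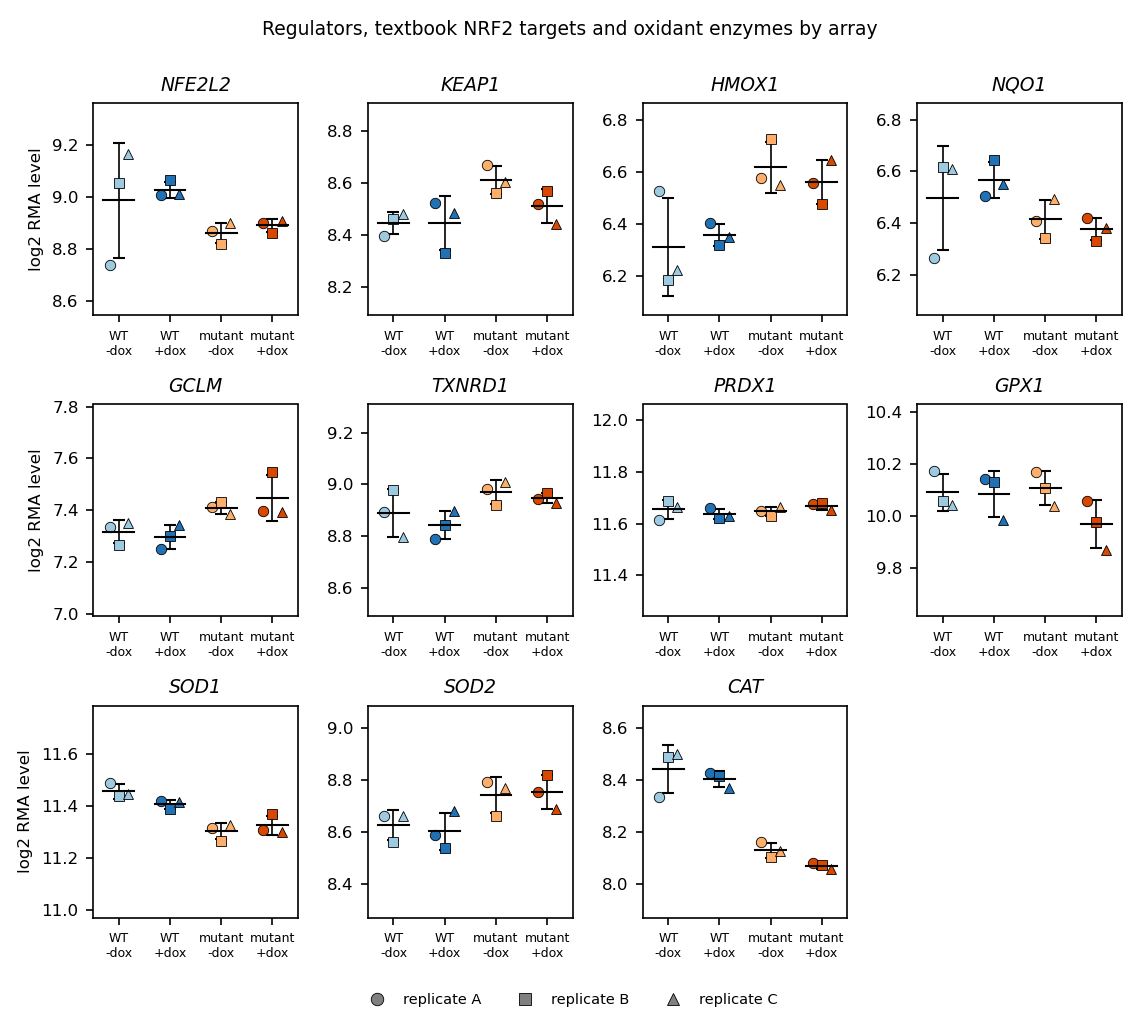
Log2 RMA level (y axis, the same span in every panel) of NFE2L2, KEAP1, textbook NRF2 targets and oxidant-removing enzymes on each of the 12 arrays, in the WT and C104A/C131A (mutant) lines without (-dox) and with (+dox) induction. Marker shape gives the replicate letter, horizontal lines are group means and bars are SD (n = 3); induced and uninduced arrays of a line overlap in all panels except SOD1 in the WT line and CAT in the C104A/C131A line.

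GLRX, glutaredoxin 1, which removes glutathione from protein thiols in the cytosol, had the largest induction change of the 42 genes in both lines. It measured 7.15, 7.19 and 7.37 in uninduced and 7.38, 7.38 and 7.49 in induced WT cells, and 8.34, 8.18 and 8.30 in uninduced and 8.49, 8.50 and 8.54 in induced C104A/C131A cells. The induced and uninduced arrays did not overlap in either line, though in the WT line they were apart only by a small margin (7.38 against 7.37). The change was 0.18 ± 0.07 (SE) in the WT line (adjusted p = 0.996) and 0.24 ± 0.07 in the C104A/C131A line (limma, adjusted p = 0.455). Averaged over lines, 0 of 42 genes passed, where 0.473% of all genes did, and 1 (GLRX) had an unadjusted p under 0.05, beside 5.52% of all genes. GLRX was 0.21 there with an adjusted p of 0.155 in limma. It passed when dim genes were left out (adjusted p = 0.0259) and when WT uninduced replicate C was left out (0.24, adjusted p = 0.0481).

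GCLC, the catalytic subunit of glutamate-cysteine ligase, measured 8.62, 8.59 and 8.77 in uninduced and 8.75, 8.83 and 8.87 in induced C104A/C131A cells, and 8.68, 8.78 and 8.88 against 8.75, 8.74 and 8.70 in WT cells. Its states overlapped in both lines, and its change of 0.15 in the C104A/C131A line had an unadjusted p of 0.04 and a limma adjusted p of 0.837. The test of the difference between the lines' responses called 0 of 42 genes, where 0% of all genes were called, and no member had an unadjusted p under 0.05 there, beside 4.21% of all genes. The ordinary two-way model also gave 0. The differences ran from -0.19 for CBR3, a carbonyl reductase, to 0.21 for GCLC. Their intervals lay within 1.5-fold for all 42 genes and within 1.25-fold for 30, beside 44.6% of all genes, bright and dim together. A smaller difference between the responses of the 2 lines could not be read for the other 12.

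The oxidant-removing enzymes themselves gave no call on induction. PRDX1, an abundant cytosolic peroxiredoxin, measured 11.61, 11.69 and 11.66 against 11.66, 11.62 and 11.63 in the WT line, and 11.65, 11.63 and 11.66 against 11.67, 11.68 and 11.65 in the C104A/C131A line. Its 95% interval was -0.12 to 0.08 in the WT line and -0.08 to 0.12 in the C104A/C131A line. GPX1, glutathione peroxidase 1, measured 10.17, 10.06 and 10.04 against 10.14, 10.13 and 9.98 in the WT line and 10.17, 10.11 and 10.04 against 10.06, 9.98 and 9.87 in the C104A/C131A line. The change of -0.14 in the C104A/C131A line did not pass (limma, adjusted p = 0.861), its groups overlapped, and a second, dimmer probe set of GPX1 gave -0.03.

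SOD2, the superoxide dismutase of the mitochondrial matrix, measured 8.66, 8.56 and 8.66 against 8.59, 8.54 and 8.68 in the WT line and 8.79, 8.66 and 8.77 against 8.76, 8.82 and 8.69 in the C104A/C131A line. The 5 genes whose products work in mitochondria, SOD2, PRDX3, TXN2, TXNRD2 and GLRX2, gave 0 calls on induction in either line. In the WT line their changes ran from -0.08 (TXN2) to 0.10 (TXNRD2). In the C104A/C131A line the lowest was -0.07 (TXNRD2) and the highest 0.04 (PRDX3). The 4 genes of NADPH supply, ME1, PGD, TALDO1 and TKT, changed by -0.05 to -0.01 in WT cells and by -0.07 to 0.06 in C104A/C131A cells.

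A wider list of 71 other antioxidant and NRF2 pathway genes, 61 of them measured, gave calls where the 42 genes gave none. Like the 42 genes, this list was chosen with earlier results of these data known. Its counts describe these genes and do not test the list. In the C104A/C131A line 2 of 61 rose, where 0.326% of all genes were called: SLC7A11, which imports cystine for glutathione synthesis, by 0.69 (1.61-fold, limma adjusted p = 0.00524), and UGDH, which makes UDP-glucuronic acid, by 0.44 (1.36-fold, adjusted p = 0.0233). In the WT line 0 of 61 passed, where 0.114% of all genes did, and 4 had an unadjusted p under 0.05, beside 4.46% of all genes. There SLC7A11 changed by 0.34 (limma, adjusted p = 0.73) and UGDH by 0.30 (adjusted p = 0.514), and in both genes the induced WT arrays lay above the uninduced ones. Averaged over lines the same 2 of 61 were called, where 0.473% of all genes were, at 0.51 for SLC7A11 and 0.37 for UGDH (limma, adjusted p = 0.00272 and 0.00533). The difference between the lines' responses did not pass for SLC7A11 (0.35, limma adjusted p = 0.982) or UGDH (0.14, adjusted p = 0.982).

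The second question was how the lines differed from each other in the same state. In uninduced cells 15 of 42 (35.7%) differed between lines, 10 higher and 5 lower in the C104A/C131A line, where 21.4% of all genes differed. In induced cells 16 of 42 (38.1%) differed, 10 higher and 6 lower, where 21.6% of all genes differed. The rate depends on signal: among genes above the median level, 32.1% differed in uninduced and 31.8% in induced cells, and 38 of the 42 genes are in that range. The share of called members was therefore near that of genes of like brightness. By direction, 10.8% of all genes, bright and dim together, were higher and 10.5% lower in uninduced cells, and 10.8% and 10.9% in induced cells. With dim genes left out before adjustment, 1862 of 9202 genes were higher and 1963 lower in uninduced cells. In induced cells these counts were 1911 and 1887. Groups did not overlap in 16 genes higher and 6 lower in uninduced cells, beside 18.4% and 19% of all genes. In induced cells this held for 19 higher and 10 lower, beside 16.4% and 19.9%. The shares of groups without overlap were not counted among genes of like brightness.

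The calls in both states shared 12 genes, all with the same direction. These were 80% of the uninduced and 75% of the induced calls, from different arrays but with 1 shared estimate of spread. SRXN1, GLRX, ME1, PGD, SQSTM1, EPHX1, FTL and MGST1 were higher in the C104A/C131A line, and TXNIP, CAT, CBR1 and ABCC1 were lower. Of the 8 genes with the response element core in their window, EPHX1, ME1, MGST1 and PGD were among the higher genes, CBR1 was among the lower ones, and GCLM, KEAP1 and TXNRD1 passed in neither state. That is 5 of 8, in both directions, beside 6 of the 25 members that had a window without the core. This contrast was drawn after the calls were seen, rests on few genes and was not tested. Both CBR1 calls were lost with arrays centred within chromosomes. Over all measured genes with a window, bright and dim together, 17.6% of those with the core and 16.8% of those without it were called in both states. NQO1 and GCLC, which NRF2 also controls, likewise passed in neither state of the main fit. GCLM, KEAP1 and NQO1 did pass under some alternative settings, as described below.

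**Figure D3:**
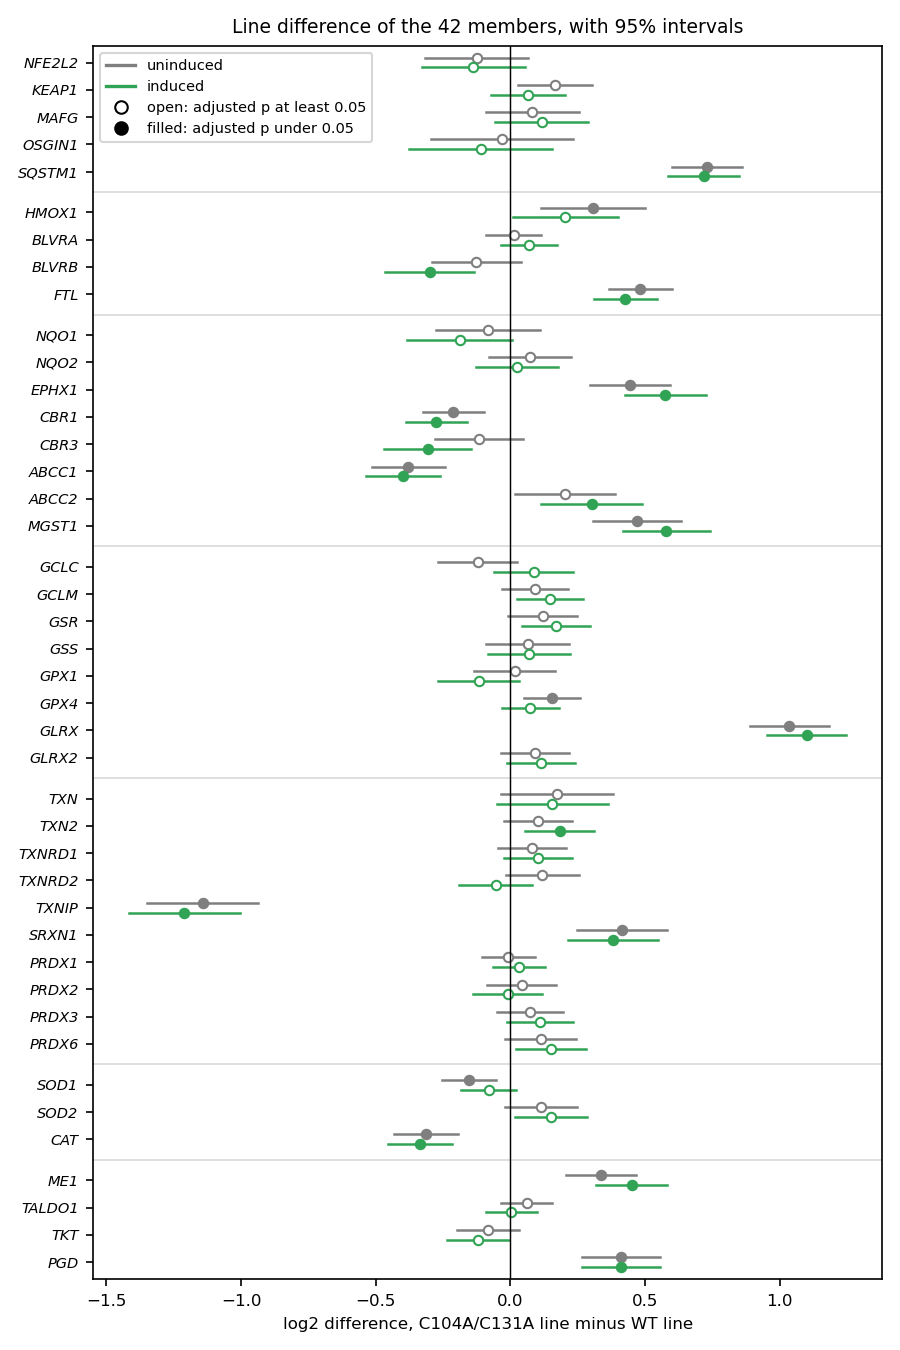
Log2 difference between lines (x axis, C104A/C131A minus WT) of each of the 42 genes with its 95% interval from limma, in uninduced (grey) and induced (green) cells, grouped by role as in the induction plot. Filled points passed an adjusted p of 0.05; TXNIP stands alone on the left at -1.14 and -1.21, and GLRX on the right at 1.04 and 1.10.

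TXNIP had the largest difference. It encodes an arrestin-like protein that binds reduced thioredoxin and limits glucose uptake. TXNIP measured 8.64, 8.63 and 8.57 in uninduced and 8.63, 8.60 and 8.53 in induced WT cells, and 7.58, 7.52 and 7.31 in uninduced and 7.33, 7.59 and 7.21 in induced C104A/C131A cells. Every C104A/C131A array lay below every WT array. The line difference was -1.14 ± 0.09 (SE) in uninduced cells, or 0.453-fold (95% interval 0.393 to 0.522, limma adjusted p = 6.07e-06). In induced cells it was 0.432-fold (0.375 to 0.498, adjusted p = 4.17e-06). Induction itself changed TXNIP by -0.02 in the WT line and -0.09 in the C104A/C131A line, neither past the threshold. On chromosome 1, 2 of 1863 genes, TXNIP among them, were this far down in each state.

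The TXNIP promoter is known for a carbohydrate response element, a paired E-box-like site bound by the glucose-sensing factors MondoA and ChREBP. The window held 2 copies of CACGAG, 5 bases apart, at -88 and -77 from the start site. CACGAG itself was present on either strand in 6.78% of all windows and in 10 of the 52 windows of the members, from 8 of 33 genes. A pair with this spacing was present in 2 of all 35116 windows, TXNIP's among them; the spacing was taken from TXNIP itself. The stretch is shown because TXNIP carries the largest line difference, with both copies in capitals.
TXNIP (chr1:145996635-145996683, minus strand): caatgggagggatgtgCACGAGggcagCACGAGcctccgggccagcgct

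In the same thioredoxin and peroxiredoxin group, SRXN1 was higher in the C104A/C131A line. It measured 8.57, 8.53 and 8.61 in uninduced and 8.39, 8.35 and 8.67 in induced WT cells, and 8.98, 8.96 and 9.01 in uninduced and 8.84, 8.90 and 8.81 in induced C104A/C131A cells. The groups did not overlap in either state, and the difference was 0.41 ± 0.08 (SE) in uninduced cells (1.33-fold, limma adjusted p = 0.00214) and 0.38 in induced cells (1.30-fold, adjusted p = 0.00366). The other 8 genes of this group gave 1 call in the 2 comparisons together, TXN2, mitochondrial thioredoxin, at 0.18 in induced cells (limma, adjusted p = 0.0432). That call was lost in 12 of 22 alternative settings. Among these were leaving out WT uninduced B or C, WT induced B or C, C104A/C131A uninduced A or C, or any C104A/C131A induced array, with adjusted p of 0.0534 to 0.15 in limma. PRDX1 differed by -0.01 and 0.03.

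GLRX differed most among the higher genes. The line difference was 1.04 ± 0.07 (SE) in uninduced cells, or 2.05-fold (95% interval 1.85 to 2.27, limma adjusted p = 1.1e-06), and 1.10, or 2.14-fold, in induced cells (adjusted p = 7.07e-07). SQSTM1, which encodes the autophagy adaptor p62 that can draw KEAP1 away from NRF2, measured 8.58, 8.63 and 8.62 in uninduced and 8.53, 8.54 and 8.69 in induced WT cells. In C104A/C131A cells it measured 9.35, 9.28 and 9.39 uninduced and 9.22, 9.35 and 9.33 induced. Every C104A/C131A array lay above every WT array for both genes. SQSTM1 was 1.66-fold higher in uninduced (limma, adjusted p = 5.81e-06) and 1.64-fold higher in induced cells (adjusted p = 7.07e-06).

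GLRX and SQSTM1 both lie on chromosome 5, where the median of 782 genes was itself 0.25 higher in the C104A/C131A line in each state. Less that median, GLRX differed by 0.79 and 0.85 and SQSTM1 by 0.48 and 0.47 in uninduced and induced cells. On that chromosome 16 and 12 genes were at least as high as GLRX in uninduced and induced cells, and 33 and 49 were at least as high as SQSTM1. With each array centred within chromosomes, both genes still passed, at 0.71 and 0.74 for GLRX and 0.41 and 0.35 for SQSTM1. The medians were also shifted on chromosome 13, by -0.31 and -0.30, which holds none of the 42 genes, and on chromosome 21, by -0.11 and -0.15, which holds 3. Off these chromosomes 11 of 37 genes (29.7%) were called in uninduced and 12 of 37 (32.4%) in induced cells. Among genes above the median level on all chromosomes, 32.1% and 31.8% were called, so these shares were near those of bright genes.

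**Figure D4:**
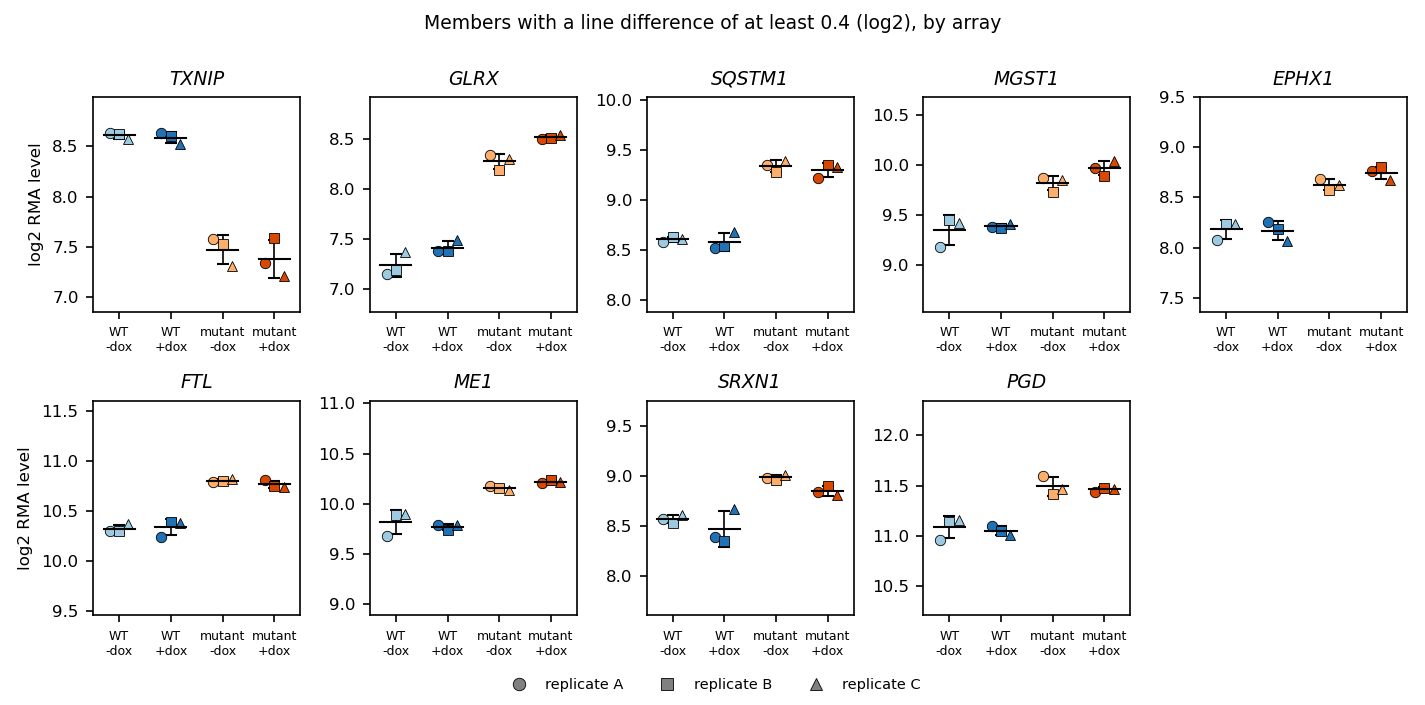
Log2 RMA level (y axis, the same span in every panel) on each of the 12 arrays of the 9 genes that passed an adjusted p of 0.05 with a log2 line difference of at least 0.4 in a state. Marker shape gives the replicate letter, horizontal lines are group means and bars are SD (n = 3); in each panel the C104A/C131A (mutant) arrays are separate from the WT arrays, below them for TXNIP and above them for the other 8 genes.

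The iron and detoxification genes divided. FTL, the light chain of the iron store ferritin, measured 10.29, 10.30 and 10.37 in uninduced and 10.24, 10.38 and 10.38 in induced WT cells, and 10.79, 10.80 and 10.82 against 10.80, 10.75 and 10.74 in C104A/C131A cells. It was 1.40-fold higher in uninduced and 1.34-fold higher in induced C104A/C131A cells (limma, adjusted p = 5.38e-05 and 0.000132). FTL has processed pseudogenes, and whether its probes also read them was not tested. HMOX1 was higher by 0.31 ± 0.09 (SE) in uninduced cells (1.24-fold, limma adjusted p = 0.0284), and by 0.20 in induced cells, which did not pass (adjusted p = 0.134). The uninduced call was lost in 6 of 21 settings, among them without WT uninduced B or C or C104A/C131A uninduced A or B (limma, adjusted p = 0.0534 to 0.118). The induced difference passed without WT uninduced replicate A (limma, adjusted p = 0.0395) and without both that array and C104A/C131A induced replicate B (adjusted p = 0.0265). It also passed with array weights (limma, adjusted p = 0.0421) and with arrays centred within chromosomes (adjusted p = 0.0277). BLVRB, a biliverdin reductase, was lower in induced cells by 0.813-fold (limma, adjusted p = 0.0141), lost without C104A/C131A induced replicate C (adjusted p = 0.0586) and with arrays centred within chromosomes (adjusted p = 0.0914).

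MGST1, a membrane-bound glutathione transferase, measured 9.18, 9.45 and 9.42 in uninduced and 9.38, 9.37 and 9.42 in induced WT cells, and 9.87, 9.74 and 9.86 against 9.97, 9.90 and 10.04 in C104A/C131A cells. It was 1.39-fold higher in uninduced (limma, adjusted p = 0.000723) and 1.49-fold higher in induced C104A/C131A cells (adjusted p = 0.000161). EPHX1, microsomal epoxide hydrolase, measured 8.07, 8.24 and 8.24 against 8.26, 8.19 and 8.06 in the WT line, and 8.68, 8.57 and 8.63 against 8.76, 8.80 and 8.68 in the C104A/C131A line. It was 1.36-fold and 1.49-fold higher in uninduced and induced C104A/C131A cells (limma, adjusted p = 0.000605 and 9.17e-05). For both genes the lines were fully separate in each state.

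Other detoxification genes were lower in the C104A/C131A line. ABCC1, an exporter of glutathione conjugates, was at 0.769-fold in uninduced and 0.758-fold in induced cells (limma, adjusted p = 0.000953 and 0.000655). CBR1, a carbonyl reductase on chromosome 21, was at 0.863-fold and 0.826-fold (limma, adjusted p = 0.0115 and 0.00235), and both calls were lost with arrays centred within chromosomes (adjusted p = 0.139 and 0.112). The CBR1 call in uninduced cells was also lost without WT uninduced replicate B (adjusted p = 0.0559) and without C104A/C131A uninduced replicate B (adjusted p = 0.0536). CBR3, on the same chromosome, passed in induced cells, at 0.808-fold (limma, adjusted p = 0.0108), and not in uninduced cells (0.922-fold, adjusted p = 0.323); the difference between states was not called. ABCC2, a dim relative of ABCC1, was 1.23-fold higher in induced cells (limma, adjusted p = 0.0254). That call was lost in 6 of 21 settings, among them without WT induced A or C or C104A/C131A induced B or C (limma, adjusted p = 0.0524 to 0.0979).

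NQO1 and NFE2L2 depended on 1 array. NFE2L2 differed between lines by -0.12 in uninduced cells (limma, adjusted p = 0.378), where WT replicate A was the lowest of all 12 arrays. Without that array the difference was -0.25 (adjusted p = 0.00841). NQO1 differed by -0.08 in uninduced cells, and without the same array by -0.20 (limma, adjusted p = 0.0471). In induced cells, where that array enters only through the estimate of spread, NQO1 differed by -0.19 with an adjusted p of 0.164, or 0.0333 without it. KEAP1 was 0.17 higher in uninduced C104A/C131A cells, where the groups did not overlap, and did not pass (limma, adjusted p = 0.0894). It passed with dim genes left out (limma, adjusted p = 0.0329) and with array weights (0.15, adjusted p = 0.0363).

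Among the enzymes for superoxide and peroxide, CAT, peroxisomal catalase, was lower in the C104A/C131A line. It measured 8.34, 8.49 and 8.50 in uninduced and 8.43, 8.42 and 8.37 in induced WT cells, and 8.16, 8.10 and 8.13 against 8.08, 8.07 and 8.06 in C104A/C131A cells. All C104A/C131A arrays lay below all WT arrays, at 0.805-fold in uninduced and 0.793-fold in induced cells (limma, adjusted p = 0.0013 and 0.000815). SOD1, cytosolic superoxide dismutase on chromosome 21, measured 11.49, 11.44 and 11.45 against 11.42, 11.39 and 11.41 in the WT line and 11.32, 11.27 and 11.33 against 11.31, 11.37 and 11.30 in the C104A/C131A line. It was at 0.899-fold in uninduced cells (limma, adjusted p = 0.0332), and did not pass in induced cells (adjusted p = 0.258). The uninduced call was lost in 11 of 22 settings, among them without any 1 of the uninduced arrays of either line or WT induced B (limma, adjusted p up to 0.117), and with arrays centred within chromosomes (adjusted p = 0.28). SOD2 differed by 0.11 and 0.15 and passed in neither state (limma, adjusted p = 0.238 and 0.107). It passed in uninduced cells with array weights (limma, adjusted p = 0.0213) and in induced cells with dim genes left out (adjusted p = 0.0435).

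In the glutathione group 2 of 8 genes differed between lines in uninduced and 1 of 8 in induced cells, beside 21.4% and 21.6% of all genes. Apart from GLRX, the call was GPX4, the peroxidase for lipid hydroperoxides, at 0.15 in uninduced cells (limma, adjusted p = 0.04). That call was lost in 11 of 22 settings, among them without any 1 of the uninduced arrays of either line or WT induced B (limma, adjusted p = 0.06 to 0.118). GSR, glutathione reductase, was 0.17 higher in induced cells, which did not pass (limma, adjusted p = 0.0591) except without WT uninduced replicate A (adjusted p = 0.0368) and under 4 other settings. GCLM differed by 0.09 and 0.15 (limma, adjusted p = 0.304 and 0.0842). In uninduced cells it passed with array weights (0.12, limma adjusted p = 0.0441). In induced cells it passed with arrays centred on their medians (limma, adjusted p = 0.046) and with dim genes left out (adjusted p = 0.0319). GPX1 differed by 0.02 and -0.12, and its second probe set gave -0.14 in both states.

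Of the NADPH-supplying enzymes, ME1 and PGD were higher in the C104A/C131A line and TALDO1 and TKT were not called. ME1, cytosolic malic enzyme, measured 9.68, 9.89 and 9.89 in uninduced and 9.79, 9.74 and 9.78 in induced WT cells, and 10.18, 10.15 and 10.14 against 10.21, 10.23 and 10.22 in C104A/C131A cells. PGD, which makes NADPH in the pentose phosphate pathway, measured 10.96, 11.14 and 11.16 against 11.10, 11.04 and 11.01 in the WT line, and 11.60, 11.42 and 11.47 against 11.44, 11.48 and 11.47 in the C104A/C131A line. Neither gene overlapped between lines. ME1 was 1.26-fold higher in uninduced and 1.37-fold in induced cells (limma, adjusted p = 0.0016 and 0.000206), and PGD was 1.33-fold higher in both (adjusted p = 0.000848 and 0.000832).

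On the wider list, 19 of 61 genes (31.1%) differed between lines in uninduced cells, 10 higher and 9 lower, and 18 of 61 (29.5%) in induced cells, 11 higher and 7 lower. These shares stand beside 21.4% and 21.6% of all genes, and 32.1% and 31.8% of genes above the median level. SELENOP, a secreted selenium carrier on chromosome 5, was 2.23-fold higher in uninduced and 1.93-fold higher in induced C104A/C131A cells (limma, adjusted p = 7.05e-05 and 0.000312). SESN2, a stress-induced sestrin, was 1.49-fold and 1.34-fold higher (limma, adjusted p = 7.42e-05 and 0.000637). IDH2, the mitochondrial NADP-dependent isocitrate dehydrogenase, was at 0.695-fold and 0.718-fold. The other genes with the largest differences were ABCC4 on chromosome 13 (-0.48), GPX3 on chromosome 5 (0.43) and HMOX2 (0.42) in uninduced cells, and ABCC4 (-0.42), ALDH3A2 (0.42) and PARK7 (0.41) in induced cells.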

How the data were processed

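The authors deposited 1 table of log2 expression values for the 12 arrays, made by RMA per the submitters' processing notes. For the software, its version and the annotation, the sources used here give no name. That the scale is log2 was read from the range of the values, 1.05 to 14.10. RMA corrects background, normalises arrays to a common distribution and summarises probes, so a change shared by most genes is not visible and changes of dim genes are compressed. Hybridisation came from 250 ng of RNA. The number of arrays limits the precision.

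Of 32321 probe sets, 19158 had 1 gene symbol in the platform annotation, 1388 had several and 11775 had none. Probe sets with 1 symbol were used, with the probe set of highest mean kept per gene, which gave 18404 genes, 18376 of them matched to RefSeq. GPX1 and MAFG were the members with several probe sets.

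A limma model (version 3.58.1, R 4.3.3) with a mean for each of the 4 groups was fitted to all genes and 12 arrays, with empirical Bayes moderation and Benjamini-Hochberg adjustment over 18404 genes; a call is an adjusted p under 0.05. The comparisons were induction in each line, their difference and average, and the line difference in each state. Per-array values are given for members called with a log2 difference of at least 0.4 and for NFE2L2, KEAP1, HMOX1, NQO1, GCLM, TXNRD1, SRXN1, TXNIP, PRDX1, SOD1, SOD2, CAT and GPX1; other called members are named with their change. From the wider list, called genes are named up to the 6 largest per comparison. GCLC was given per array after its values were seen. The members and lists were chosen with earlier results of these data known.

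Replicate letters were checked as pairs through the correlation of deviations from group means. Uninduced and induced WT arrays of a letter correlated at 0.391, 0.139 and 0.246, so they may be paired. The main fit holds no pairing term in either line, and its p-values and intervals are unpaired. Pairing by letter entered only through the replicate block among the alternative settings. In the C104A/C131A line the values were 0.117, -0.143 and -0.02. Between lines they were -0.123, -0.147 and 0.089 in uninduced cells and 0.320, 0.144 and -0.126 in induced cells. Both sets fell on both sides of 0, so those letters were not taken as pairs. The values of A and B between lines in induced cells were as large as some of those in the WT line.

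On simulated data for 18404 genes, the fit recovered 60 of 100 genes changed by 0.4 and 97 of 100 changed by 0.8 for induction in the WT line. For induction in the C104A/C131A line it recovered 52 and 94. The simulated noise was independent between genes, and more genes were changed than the 21 called for induction in the WT line. Recovery in the real data was not measured and may be lower. Alternatives covered the prior, array weights, centring, the choice of probe set, dim genes, a replicate block and leaving out each array. Figures were drawn with matplotlib 3.10.9.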

Additional observations from a re-analysis of the deposited data

How the results depend on the processing

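Over 22 alternative settings, 12 of which leave out 1 array, 0 of 42 genes passed for induction in either line and for the difference of responses. For induction averaged over lines, 1 gene (GLRX) passed with dim genes left out, and leaving out 1 array gave 0 to 1 genes, the 1 coming without WT uninduced replicate C. The line difference called 11 to 15 genes in uninduced and 13 to 19 in induced cells when 1 array was left out, and 12 to 21 and 15 to 19 under the other settings. Of 31 line calls, 23 were lost in no setting, 8 were lost in at least 1 and 0 changed sign. With the replicate block, which pairs arrays by letter, induction in the WT line still gave 0 genes; the line difference gave 13 in uninduced cells, without GPX4 and SOD1, and 15 in induced cells, without TXN2, and the block changed no other call of a member. Genome-wide counts moved more: for induction in the WT line 21 genes became 1 with those groups compared alone, 43 with a trended robust prior and 153 with array weights, which gave WT uninduced replicate A a weight of 0.314. For induction in the C104A/C131A line 60 became 20 and 105 under the first 2 of these, and for the uninduced line difference 3934 became 6643 with array weights. The difference of responses, with 0 genes over the genome, gave 4 with array weights, 8 with dim genes left out and 9 with the trended robust prior. Leaving out 1 array gave 9 to 18 genes for induction in the WT line and 36 to 64 in the C104A/C131A line. With WT uninduced replicate A and C104A/C131A induced replicate B both left out, a setting chosen after seeing the data, 0 of 42 genes passed on induction in either line. The difference of responses and the averaged induction have no value with groups compared alone.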
